A study of Mus musculus with 26 samples.

Results

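Messenger RNA of the transcription factor genes Myc, Mycn, Max, Mxd1, Mxd4, Mxi1, Myb and Mybl2 is described here across 8 populations of mouse blood progenitors. Every probe set named with exactly 1 of these 8 symbols was taken, whatever its values. That gave 19 of the 45101 probe sets on the array and 8 of 18193 genes. Myc and Max had 1 probe set each, Mxi1 and Mybl2 had 2, Mycn, Mxd1 and Myb had 3, and Mxd4 had 4. The probe set of a gene that read highest on average is called its leading probe set.

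The study put 1 sample on each of 26 Affymetrix mouse arrays. Bone marrow was the source of 5 MPPFL- samples and of 3 samples each of MPPFL+, CMP, GMP and CLP, and thymocytes were the source of 3 samples each of DN1, DN2 and DN3. All were labelled as male C57/Bl6 mice aged 2 months, with no allele or treatment named. In the field's usage these names stand for multipotent progenitors split by FL, common myeloid, granulocyte-macrophage and common lymphoid progenitors, and successive early thymocytes that lack CD4 and CD8. A second label of the CLP arrays reads ALP. No sorting gates are named in the sources used here. Nothing in the labels says that samples of a population came from separate animals, so p-values measure the spread between these samples, which may be technical.

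Myc and Mycn are closely related activators of genes for cell growth. Each binds DNA, at a sequence called the E box, only as a pair with Max. Mxd1, Mxd4 and Mxi1 also pair with Max, bind the same sequence and bring in repressors, so that they oppose Myc proteins. Myb is an activator that blood progenitors and early thymocytes need. Mybl2, its relative in all dividing cells, joins the MuvB complex and switches on genes of the late cell cycle. In mouse bone marrow, Myc and Mycn are known to act together in the survival of stem cells, and Myc drives thymocyte growth at and after the DN3 stage.

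Values are the authors' log2 levels, for which the sources used here name no normalization. A lowest value of 2.17 recurred on every array, at 30.2% to 37.1% of the probe sets, and is called the floor. The population markers Flt3, Elane, Il7r and Ptcra followed the names. The myeloid gene Mpo did not, since in DN2 it averaged well above the floor before its fall in DN3. Flt3 averaged 13.31 in MPPFL+ and 10.99 in MPPFL-. The GMP gene Elane averaged 13.75 in GMP, the lymphoid receptor gene Il7r 13.23 in CLP, and the pre-T receptor gene Ptcra 12.81 in DN3, against 3.44 or less for Elane and 2.94 or less for Ptcra in CLP and DN2. On 4 arrays, replicates 1 and 3 of DN1 and replicates 2 and 3 of DN2, Xist or the Y-linked gene Eif2s3y went against the male label. Without them DN1 and DN2 keep 1 array each, whose spread is then assumed to be that of the other populations. Arrays were also cut into 6 clusters on their spike-in controls, a number that was set for the clustering and not found by it. DN1 and DN2 formed 1 cluster, and MPPFL-, MPPFL+ and CLP another. GMP stood alone, while CMP and DN3 were spread over 3 more. The clusters thus largely follow the populations. Where a call between clusters is lost with them as a block, cluster and population cannot be told apart. Where leaving out these arrays, or taking the clusters as a random block, ends a member's call, that is said.

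Differences were tested with limma in 1 fit of all arrays and all probe sets, and a probe set passed where its Benjamini-Hochberg adjusted p over all 45037 probe sets other than controls was under 0.05. Fold changes are 2 to the power of the log2 difference. Of the 19 probe sets, 15 passed a test for any difference among the 8 populations, against 50.1% of all probe sets. The 4 that did not were the leading probe set of Mxd1 (1434830_at), 1422002_at of Mxd1, which was at the floor on all 26 arrays, and 1425922_a_at and 1425923_at of Mycn, which lay at or near it. Over the members, 12 probe sets reached a level of 7 on some array and 7 stayed under it throughout.

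Each population was compared with a neighbour in development. In DN1 with CLP 11 of the 19 probe sets passed (23.1% of all probe sets did), with 3 higher (10.2% of all) and 8 lower (13% of all). In DN3 with DN2 10 passed (23.9% of all), with 6 higher (12.6% of all) and 4 lower (11.3% of all). In CLP with GMP 7 passed (20.8% of all), with 4 higher (11.3% of all) and 3 lower (9.42% of all). In MPPFL+ with MPPFL- 5 passed (15% of all), with 4 higher (7.56% of all) and 1 lower (7.44% of all). In GMP with CMP 4 passed (16.2% of all), with 3 higher (9.86% of all) and 1 lower (6.29% of all). In CMP with MPPFL+ 2 passed (16% of all), with 1 higher (4.9% of all) and 1 lower (11.1% of all). In DN2 with DN1 1 passed (5.48% of all), which was lower (2.74% of all lower and 2.74% higher). For CLP with MPPFL+ limma called 0 of 19, beside 4.11% of all (1.73% higher and 2.39% lower), with 2 at an unadjusted p under 0.05. The members' share was above that of all probe sets in DN1 with CLP, DN3 with DN2, CLP with GMP and MPPFL+ with MPPFL-, and near or under it in the other 4 comparisons. With the spike-in clusters as a random block, the count was 5 for DN1 with CLP (11.3% of all probe sets passed in that fit), 6 for DN3 with DN2 (14.1% of all), 4 for CLP with GMP (10.9% of all), 2 for GMP with CMP (7.35% of all) and 0 for CMP with MPPFL+ (6.92% of all). Without the 4 arrays it was 8 for DN1 with CLP (22.4% of all) and 8 for DN3 with DN2 (17.7% of all). The median difference of the 19 probe sets lay between -0.13 and 0.15 log2 in all 8 comparisons, beside 0 for all probe sets.

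**Figure D1:**
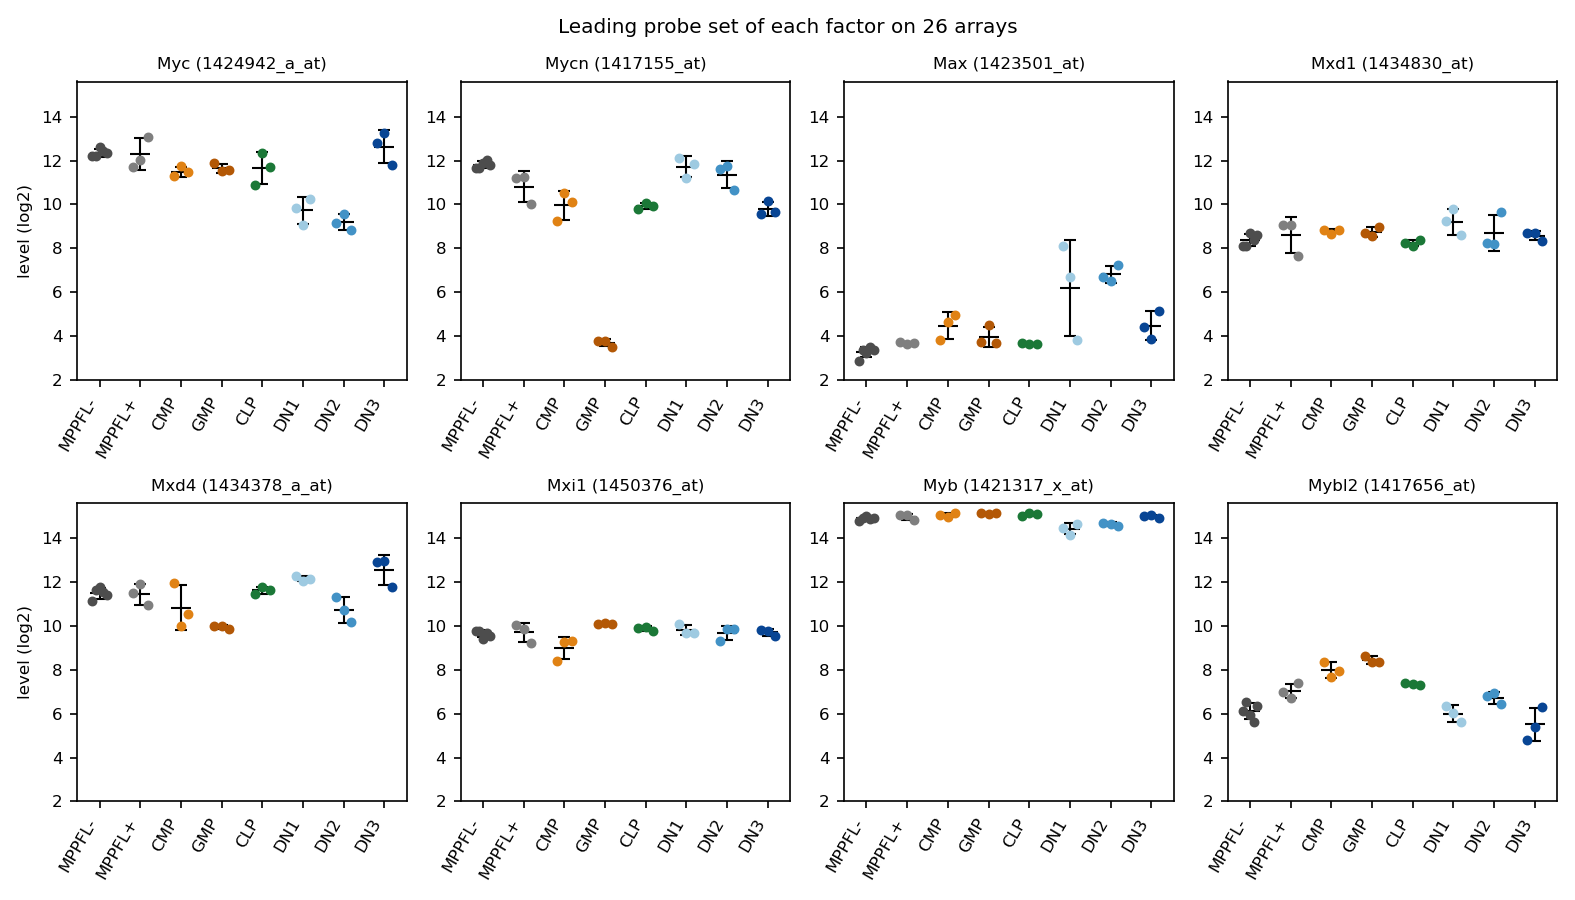
Log2 level of the leading probe set of each of the 8 genes (1 panel each, with its probe set) on every array, by population in developmental order. Points are arrays, horizontal marks are means and bars are SD. Mycn lies between 3.51 and 3.78 in GMP and above 9 on every other array, and Myc is under 10.3 on all DN1 and DN2 arrays.

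Myc was high in bone marrow progenitors, low in DN1 and DN2, and high again in DN3. Its only probe set (1424942_a_at) read 12.19, 12.20, 12.59, 12.45 and 12.32 on the MPPFL- arrays, 11.71, 12.04 and 13.09 in MPPFL+, 11.29, 11.73 and 11.45 in CMP, and 11.88, 11.50 and 11.57 in GMP. It read 10.90, 12.33 and 11.71 in CLP, 9.83, 9.08 and 10.26 in DN1, 9.17, 9.56 and 8.83 in DN2, and 12.81, 13.25 and 11.79 in DN3. The DN1 and DN2 arrays thus lay below all 20 arrays of the other populations, and the DN3 arrays overlapped MPPFL- and MPPFL+.

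At DN1, Myc fell to 9.72 ± 0.60, against 11.65 ± 0.72 in CLP (SD, n = 3 each), a log2 difference of -1.92 (SE 0.40, adjusted p = 0.00134, limma). No DN1 array reached a CLP array. The difference was -2.57 (adjusted p = 0.00353) without the arrays against the male label, and it passed with the spike-in clusters as a block (adjusted p = 0.0450). DN2 averaged 9.19 ± 0.36 and DN1 9.72 ± 0.60, and their difference did not pass (adjusted p = 0.618). In DN3, Myc rose to 12.62 ± 0.75, against 9.19 ± 0.36 in DN2 (SD, n = 3 each), which was 10.8-fold higher (log2 difference 3.43, SE 0.40, adjusted p = 2.42e-06). This rise passed in all 15 alternatives run for it, with log2 differences of 3.11 to 3.85. It was 3.45 (adjusted p = 0.000427) without the arrays against the male label and 3.31 (adjusted p = 0.000308) with the spike-in clusters as a block.

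Ordered by mean, Myc ran DN3, MPPFL-, MPPFL+, GMP, CLP, CMP, DN1, DN2. Of the 7 neighbouring pairs in that order, the step between CMP and DN1 passed (CMP 1.77 log2 higher, adjusted p = 0.00329), and the other 6 pairs did not differ beyond their spread. Among all 28 pairs of populations, 13 passed for Myc, beside a median of 7 over the leading probe sets of all genes and of 4 over all probe sets. In bulk samples such as these, fewer cells that carry an RNA and less of it in each cell cannot be told apart.

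Mycn did not follow Myc in the thymus, and it was near the floor in GMP. Its leading probe set (1417155_at) read 11.64, 11.68, 11.88, 12.02 and 11.81 in MPPFL-, 11.19, 11.24 and 10.01 in MPPFL+, 9.23, 10.53 and 10.11 in CMP, and 3.78, 3.78 and 3.51 in GMP. It read 9.80, 10.08 and 9.94 in CLP, 12.13, 11.21 and 11.82 in DN1, 11.63, 11.76 and 10.65 in DN2, and 9.56, 10.15 and 9.64 in DN3. The 3 GMP arrays stood over 5 log2 units below each of the other 23.

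In GMP, Mycn averaged 3.69 ± 0.16, against 9.95 ± 0.66 in CMP (SD, n = 3 each), a log2 difference of -6.26 (SE 0.35, adjusted p = 1.43e-10, limma). In CLP it averaged 9.94 ± 0.14, 6.25 log2 above GMP (SE 0.35, adjusted p = 8.14e-11). The GMP arrays were 1.34 to 1.61 above the floor, with 55.4% to 55.6% of the probe sets on those arrays at or below the highest of them, so the size of both differences is limited by how low the array can read. Both passed in all 15 alternatives run for each. The same 3 GMP arrays read 11.50 to 11.88 for Myc.

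Mycn was lower in MPPFL+ than in MPPFL-, at 10.81 ± 0.70 (SD, n = 3) and 11.81 ± 0.15 (SD, n = 5), with a log2 difference of -0.99 (SE 0.31, adjusted p = 0.0387). The arrays did not overlap, but the call was lost in 8 of 17 alternatives, among them leaving out MPPFL+ replicate 3 (-0.59) or any 1 of MPPFL- replicates 2 to 5. In DN1 Mycn rose to 11.72 ± 0.47, against 9.94 ± 0.14 in CLP (log2 difference 1.78, SE 0.35, adjusted p = 0.000805). Without the arrays against the male label this difference was 1.27 and did not pass (adjusted p = 0.0609). In DN3 it fell to 9.78 ± 0.32, against 11.35 ± 0.61 in DN2 (log2 difference -1.56, SE 0.35, adjusted p = 0.00237). Without those arrays it was -1.84 (adjusted p = 0.00962).

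At both steps the 2 paralogues moved in opposite directions, Mycn up and Myc down in DN1 with CLP, and Mycn down and Myc up in DN3 with DN2. Ordered by mean, Mycn ran MPPFL-, DN1, DN2, MPPFL+, CMP, CLP, DN3, GMP, and of the 7 neighbouring pairs only DN3 and GMP differed (DN3 6.09 log2 higher, adjusted p = 4.47e-11). Of the 28 pairs of populations 18 passed (median 7 over leading probe sets). The other probe sets of Mycn carried no such pattern. Probe set 1425922_a_at lay between 2.26 and 3.50 on all arrays, and 1425923_at was at the floor on 24 of 26, its 2 exceptions being CLP arrays at 2.21 and 2.27. The calls of 1425923_at in DN1 with CLP and in CLP with GMP rest on those 2 arrays.

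The 250 bases before the RefSeq start of Mycn (GRCm38.p6, chr12:12941837-12942086, minus strand) are shown because Mycn had the widest span of means among the members. Capitals mark TTGGCGC on the gene's strand at bases -182 to -176 and -167 to -161, one of the 2 forms searched for E2F (TTCCCGC or TTGGCGC). They also mark TTCAAA at -14 to -9, the reverse complement of the late cell cycle element called CHR (TTTGAA).
Mycn: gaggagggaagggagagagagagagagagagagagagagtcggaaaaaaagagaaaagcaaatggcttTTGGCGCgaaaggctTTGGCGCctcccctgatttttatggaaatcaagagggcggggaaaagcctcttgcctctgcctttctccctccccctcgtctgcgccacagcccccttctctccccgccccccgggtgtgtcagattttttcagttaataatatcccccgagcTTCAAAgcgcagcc
Both strands of 9 such windows, from 7 of the 8 genes, were searched. The E2F forms occur in 5.62% of 32851 windows of this length and the CHR in 16.0%. The window also holds cagtt, the reverse complement of a Myb motif (AACTG or AACGG) found in 48.6% of windows. It holds no E box (CACGTG). These matches describe the letters of the window only.

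Max, the common partner, had 1 probe set (1423501_at), which read low outside the early thymocytes. It read 8.11, 6.69 and 3.81 in DN1, 6.71, 6.49 and 7.25 in DN2, and 4.42, 3.86 and 5.16 in DN3. In the 5 bone marrow populations it lay between 2.87 and 4.97. These levels overlap that of Mycn in GMP, near the floor, so the size of differences from them is limited by how low the array can read. Its DN1 arrays were widely spread, with replicate 3 at the level of the bone marrow arrays, and all 3 DN2 arrays were above every array outside DN1.

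In DN1, Max averaged 6.20 ± 2.19, against 3.66 ± 0.04 in CLP (SD, n = 3 each), with a log2 difference of 2.55 (SE 0.66, adjusted p = 0.00737, limma). In DN3 it fell to 4.48 ± 0.65, against 6.82 ± 0.39 in DN2 (log2 difference -2.34, SE 0.66, adjusted p = 0.0128). Neither call held with the spike-in clusters as a block (adjusted p = 0.125 for DN1 with CLP and 0.113 for DN3 with DN2). The first call was also lost without DN1 replicate 1 (1.59), and the second without DN2 replicate 3 (-2.12) or DN3 replicate 2 (-2.03). Without the arrays against the male label the differences were 3.04 (adjusted p = 0.000136) and -2.23 (adjusted p = 0.00243). Of the 28 pairs of populations 10 passed (median 7 over leading probe sets), and no neighbouring pair in the order DN2, DN1, DN3, CMP, GMP, MPPFL+, CLP, MPPFL- did.

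Of the Max-pairing repressor genes, Mxd4 had the widest span of population means at its leading probe set. Its leading probe set (1434378_a_at) read 11.13, 11.63, 11.79, 11.53 and 11.40 in MPPFL-, 11.50, 11.90 and 10.93 in MPPFL+, 11.97, 9.98 and 10.53 in CMP, and 9.99, 9.98 and 9.84 in GMP. It read 11.47, 11.76 and 11.61 in CLP, 12.26, 12.04 and 12.12 in DN1, 11.34, 10.73 and 10.16 in DN2, and 12.91, 12.95 and 11.76 in DN3. GMP was lowest and DN3 highest, and the CMP arrays were spread from 9.98 to 11.97.

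In DN3, Mxd4 rose to 12.54 ± 0.67, against 10.74 ± 0.59 in DN2 (SD, n = 3 each), with a log2 difference of 1.80 (SE 0.40, adjusted p = 0.00228). Without the arrays against the male label it was 1.20 and did not pass (adjusted p = 0.229). Its other probe sets 1434379_at and 1422574_at also rose at this step, as Myc did. Probe set 1434379_at read 10.32, 10.19 and 8.72 in DN3, against 5.35, 6.50 and 5.21 in DN2, a log2 difference of 4.06 (SE 0.50, adjusted p = 4.16e-06). Probe set 1422574_at read 6.32, 5.53 and 5.66 in DN3, against 4.38, 4.69 and 4.38 in DN2, a log2 difference of 1.36 (SE 0.16, adjusted p = 2.70e-06). Both of these passed in all 14 alternatives run for each, and neither had overlapping arrays. Without the arrays against the male label they were 4.40 and 1.46. The fourth probe set, 1422575_at, stayed between 2.17 and 4.01 and did not pass there.

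Probe sets of Mxd4 went different ways in DN1 with CLP. The leading one averaged 12.14 in DN1 and 11.61 in CLP and did not pass (adjusted p = 0.475), while 1434379_at fell to 6.53 in DN1, against 8.38 in CLP (log2 difference -1.85, SE 0.50, adjusted p = 0.00927). This call was lost without DN1 replicate 2 (-1.37) and with the spike-in clusters as a block (adjusted p = 0.133), and was -2.82 without the arrays against the male label. Probe set 1422575_at rose to 3.39, against 2.36 in CLP (log2 difference 1.03, SE 0.20, adjusted p = 0.000775), which passed without those arrays (1.07) and with the block (adjusted p = 0.0384). In CLP with GMP the leading probe set was higher, at 11.61 ± 0.15 in CLP and 9.94 ± 0.09 in GMP (log2 difference 1.68, SE 0.40, adjusted p = 0.00441), though not with the control signal as a covariate (1.21). Probe set 1434379_at was higher too (log2 difference 1.46, adjusted p = 0.0427), a call lost in 10 of 14 alternatives, leaving out any 1 of the 6 arrays among them. In DN2 the leading probe set was lower, at 10.74 in DN2 and 12.14 in DN1 (log2 difference -1.40, SE 0.40, adjusted p = 0.0495). That call was lost in 8 of 15 alternatives, among them leaving out any 1 of the DN1 arrays or of DN2 replicates 2 and 3, and leaving out the arrays against the male label (-0.70). Over the 26 arrays the leading probe set correlated with the other 3 at r = 0.52, 0.59 and 0.33.

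The RefSeq window before the start of Mxd4 (GRCm38.p6, chr5:34187711-34187960, minus strand) is shown because it was the single member window with an E box, the sequence that Myc and Mxd proteins bind with Max. Capitals mark CACGTG at bases -219 to -214, a sequence that 6.02% of all windows hold.
Mxd4: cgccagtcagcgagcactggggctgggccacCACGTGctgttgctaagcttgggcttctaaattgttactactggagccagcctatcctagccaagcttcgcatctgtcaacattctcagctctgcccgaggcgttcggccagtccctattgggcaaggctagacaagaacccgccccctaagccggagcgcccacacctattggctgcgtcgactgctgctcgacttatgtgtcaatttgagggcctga
No binding was measured, and a match is a description of the letters alone.

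Mxi1 and Mxd1 changed less. The leading probe set of Mxi1 (1450376_at) read 10.09, 10.11 and 10.07 in GMP, against 8.42, 9.27 and 9.32 in CMP, without overlap. GMP averaged 10.09 ± 0.02 and CMP 9.0 ± 0.51 (SD, n = 3 each), with a log2 difference of 1.09 (SE 0.22, adjusted p = 0.00173). CMP was also lower than MPPFL+, at 9.0 ± 0.51 in CMP and 9.72 ± 0.43 in MPPFL+ (log2 difference -0.71, adjusted p = 0.0325), with overlapping arrays, and this was lost in 7 of 15 alternatives, among them the spike-in clusters as a block (adjusted p = 0.189), leaving out CMP replicate 1 (-0.42) and leaving out MPPFL+ replicates 1 and 2 in turn. In the 7 populations other than CMP its array values lay between 9.23 and 10.11, and the CMP mean was lower than the next one in the order of means, that of MPPFL- (MPPFL- 0.63 log2 higher, adjusted p = 0.0240). That step rests on CMP replicate 1 at 8.42, without which CMP minus MPPFL- was -0.34 (adjusted p = 0.244), and the other 2 CMP arrays lay within the range of the other populations. Its second probe set, 1425732_a_at, read 3.91, 5.51 and 4.35 in GMP, against 4.19, 3.12 and 3.12 in CMP (log2 difference 1.12, SE 0.30, adjusted p = 0.0147), with overlap, a call lost without CMP replicate 2 or 3 or GMP replicate 2 (0.66 without the last) and with the spike-in clusters as a block (adjusted p = 0.129). It fell in CLP with GMP, at 3.14 in CLP and 4.59 in GMP (log2 difference -1.46, adjusted p = 0.00133).

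Mxd1, the founding member of its family and a gene known to rise as myeloid cells mature, did not pass at its leading probe set in any of the 28 pairs of populations. That probe set (1434830_at) had population means from 8.23 in CLP up to 9.22 in DN1, with an SD of up to 0.83. The dimmer probe set 1455104_at read 5.45, 5.37 and 4.38 in MPPFL+, against 3.93, 3.65, 3.53, 2.67 and 3.65 in MPPFL-, without overlap (log2 difference 1.58, SE 0.33, adjusted p = 0.00237), and this passed in all 16 alternatives. It fell in DN1 with CLP, at 3.66 in DN1 and 4.86 in CLP (log2 difference -1.20, adjusted p = 0.0240), a call lost in 6 of 14 alternatives, among them leaving out replicate 1 or 2 of either population. These 2 probe sets correlated at r = 0.11 over 26 arrays.

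Myb read high in all 8 populations, and 2 of its 3 probe sets were lowest in DN1. Its leading probe set (1421317_x_at) lay between 14.15 and 15.14, near the top of the table at 17.1, and its suffix x marks probes that the array maker expects to match other transcripts too. It read 14.48, 14.15 and 14.65 in DN1, against 15.03, 15.14 and 15.08 in CLP, a log2 difference of -0.66 (SE 0.09, adjusted p = 2.58e-05). Over 26 arrays it correlated with 1422734_a_at at r = 0.77 and with 1450194_a_at at r = 0.36.

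Probe set 1422734_a_at of Myb showed larger differences. It read 10.24, 9.03, 9.02, 9.04 and 9.59 in MPPFL-, 10.75, 10.62 and 10.78 in MPPFL+, 10.84, 11.15 and 9.98 in CMP, and 11.18, 11.51 and 11.65 in GMP. It read 11.09, 11.00 and 10.75 in CLP, 8.97, 7.97 and 8.48 in DN1, 9.35, 9.55 and 9.46 in DN2, and 10.52, 10.60 and 10.66 in DN3. All DN1 arrays lay below all arrays of the other populations, and GMP was highest.

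In MPPFL+, Myb rose to 10.72 ± 0.08 (SD, n = 3) on this probe set, against 9.38 ± 0.54 (SD, n = 5) in MPPFL-, with no overlap (log2 difference 1.33, SE 0.27, adjusted p = 0.00195). In DN1 it fell to 8.48 ± 0.50, against 10.95 ± 0.18 in CLP (SD, n = 3 each), which was 5.54-fold lower (log2 difference -2.47, SE 0.31, adjusted p = 7.03e-06). Both differences passed in every alternative run, 16 for the first and 14 for the second. In DN3 it rose to 10.59 ± 0.07, against 9.45 ± 0.10 in DN2 (log2 difference 1.14, SE 0.31, adjusted p = 0.00904), though not with the spike-in clusters as a block (adjusted p = 0.0909) or without the arrays against the male label (adjusted p = 0.0679). The leading probe set rose there by 0.37 (adjusted p = 0.00514), also not with that block (adjusted p = 0.0810).

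The third probe set of Myb, 1450194_a_at, was higher in MPPFL+ too, at 13.56 ± 0.21 against 12.28 ± 0.70 in MPPFL- (log2 difference 1.28, SE 0.28, adjusted p = 0.00363), although the lowest MPPFL+ array at 13.33 lay just under MPPFL- replicate 1 at 13.34. The leading probe set did not pass in that comparison, at 14.97 in MPPFL+ and 14.90 in MPPFL- (adjusted p = 0.855). In DN1 1450194_a_at fell to 12.69, against 13.65 in CLP (log2 difference -0.96, adjusted p = 0.0338), a call lost in 8 of 14 alternatives, among them leaving out any 1 CLP array or DN1 replicate 1 or 2. All 3 probe sets thus passed and were lower in DN1 with CLP.

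**Figure D2:**
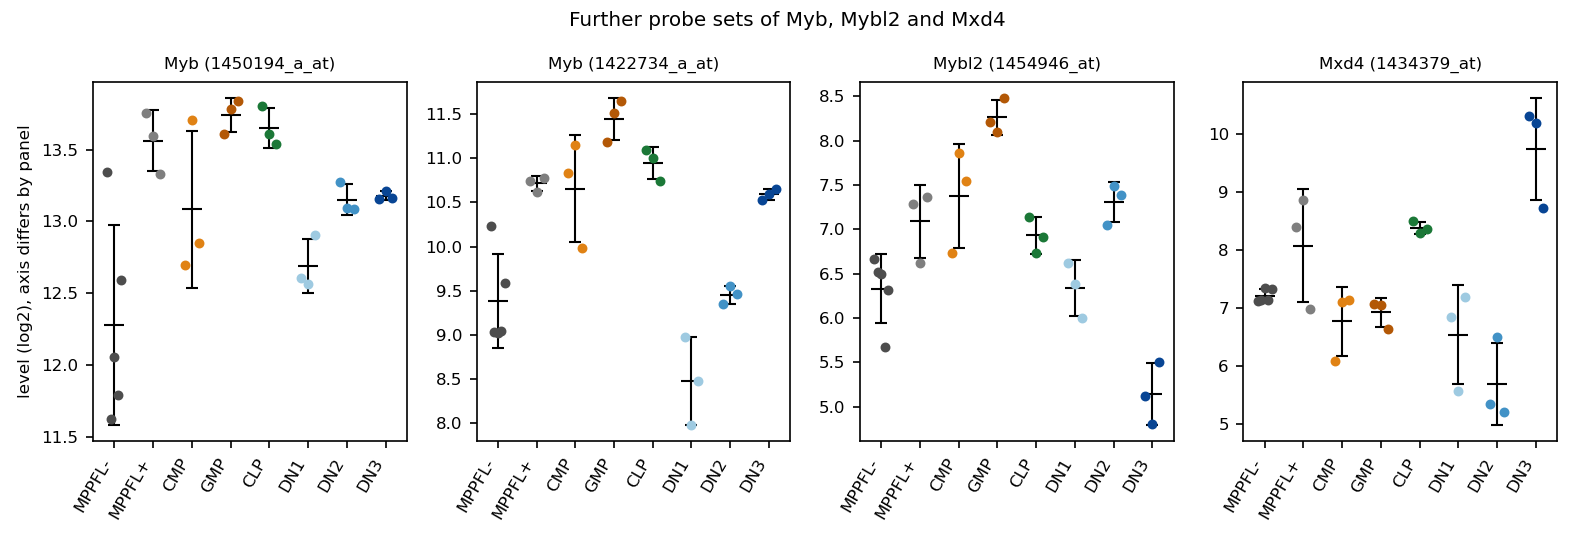
Log2 level of 4 further probe sets, 2 of Myb, 1 of Mybl2 and 1 of Mxd4, on every array by population. Points are arrays, marks are means, bars are SD, and the vertical axes differ between panels. Myb 1422734_a_at is lowest in DN1, Mybl2 1454946_at is highest in GMP and lowest in DN3, and Mxd4 1434379_at is highest in DN3.

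Mybl2 was highest in GMP and lowest in DN3. Its leading probe set (1417656_at) read 6.12, 6.54, 5.94, 5.64 and 6.35 in MPPFL-, 6.98, 6.73 and 7.38 in MPPFL+, 8.38, 7.68 and 7.92 in CMP, and 8.64, 8.34 and 8.36 in GMP. It read 7.42, 7.34 and 7.29 in CLP, 6.36, 6.04 and 5.62 in DN1, 6.81, 6.93 and 6.43 in DN2, and 4.82, 5.41 and 6.33 in DN3. At this probe set the levels thus stood in the order MPPFL-, MPPFL+, CMP, GMP along the myeloid path. MPPFL+ and CMP each lay above all arrays of the population before. At 1454946_at the means had the same order, but the arrays overlapped at both of these steps.

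The second probe set, 1454946_at, had a correlation of 0.85 with the first over 26 arrays. In DN3 it fell to 5.14 ± 0.35, against 7.31 ± 0.22 in DN2 (SD, n = 3 each), which was 4.48-fold lower (log2 difference -2.16, SE 0.29, adjusted p = 1.22e-05), with no overlap and in all 14 alternatives. The leading probe set fell there too, at 5.52 ± 0.76 in DN3 and 6.72 ± 0.26 in DN2 (log2 difference -1.20, SE 0.31, adjusted p = 0.00594), a call lost in 4 of 15 alternatives, among them leaving out DN3 replicate 1 (the lowest array).

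In CLP with GMP both probe sets were lower, with log2 differences of -1.10 (SE 0.31, adjusted p = 0.0129) for the leading one and -1.33 (SE 0.29, adjusted p = 0.00193) for 1454946_at. The first call was lost without GMP replicate 1, with the spike-in clusters as a block (adjusted p = 0.152) and with the control signal as a covariate (adjusted p = 0.0687), and the second passed in all 14 alternatives. In DN1 the leading one fell to 6.01 ± 0.37, against 7.35 ± 0.06 in CLP (log2 difference -1.35, adjusted p = 0.00263), and 1454946_at did not pass (adjusted p = 0.171). The leading probe set rose in MPPFL+ with MPPFL- (log2 difference 0.91, adjusted p = 0.0283, limma) and in CMP with MPPFL+ (0.96, adjusted p = 0.0367). There 1454946_at did not pass (0.76, adjusted p = 0.0575, and 0.29, adjusted p = 0.688). In GMP with CMP 1454946_at rose (0.89, adjusted p = 0.0427) and the leading one did not pass (0.46, adjusted p = 0.378). The 3 calls that passed were lost in 7 of 17, 9 of 15 and 9 of 14 alternatives. Leaving out 1 array ended the first for 4 different arrays, MPPFL- replicates 3 and 4 and MPPFL+ replicates 1 and 3. It ended the second for CMP replicates 1 and 3 and MPPFL+ replicates 1 and 2, and the third for CMP replicate 1 and each GMP array.

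Myb and Mybl2 are shown by the last 30 bases before their RefSeq starts (GRCm38.p6, chr10:21160985-21161014, minus strand for Myb and chr2:163054605-163054634, plus strand for Mybl2), since both hold the E2F-like letters TTGGCGG, in capitals, close to the start.
Myb: cactgcaggggcgccagatTTGGCGGgagg
Mybl2: gcggcgccgacgcacTTGGCGGgagatagg
The match lies at bases -11 to -5 in Myb and -15 to -9 in Mybl2, and 2.17% of all windows of 250 bases hold these letters on either strand. That motif was chosen after the windows had been read. No other member window holds it.

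**Figure D3:**
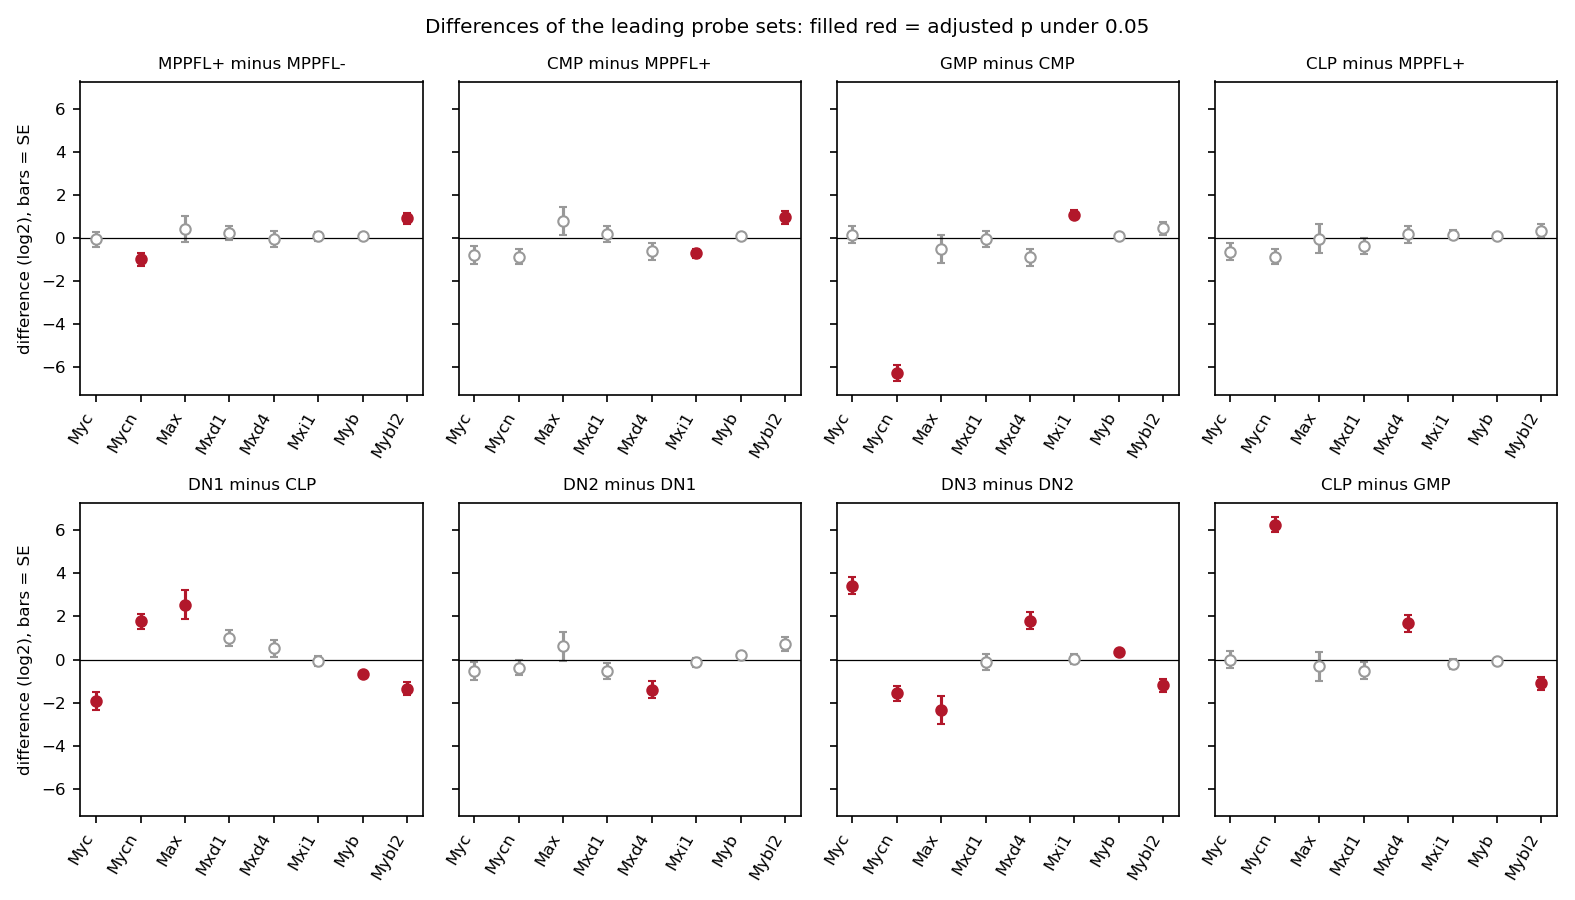
Log2 difference of the leading probe set of each gene in the 8 comparisons (1 panel each, first-named population minus the other), with SE. Filled red points passed at an adjusted p under 0.05 and open grey points did not. DN1 minus CLP has 5 filled points and DN3 minus DN2 has 6, and Myc and Mycn have opposite signs in both.

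Over the leading probe sets, 5 of 8 genes passed in DN1 with CLP, with Mycn and Max higher and Myc, Myb and Mybl2 lower, beside 26.1% of the leading probe sets of all genes (7.79% higher, 18.3% lower). In DN3 with DN2, 6 of 8 passed, with Myc, Mxd4 and Myb higher and Mycn, Max and Mybl2 lower, beside 29.8% of all (16.1% higher, 13.7% lower). The 2 comparisons share no array, but they come from the same fit and are not independent. DN1 and DN2 formed the same spike-in cluster, held all arrays against the male label and differed at 5.48% of all probe sets. An offset common to DN1 and DN2 would by itself give a gene opposite signs in the 2 comparisons. The part of such an offset was not tested. Of the 5 genes that passed at both steps, each had the opposite sign at the second step except Mybl2, which was lower at both.

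Without the 4 arrays against the male label, the leading probe set of Myb was -0.93 (adjusted p = 1.37e-06) in DN1 with CLP and 0.30 (adjusted p = 0.0292) in DN3 with DN2. Its probe set 1422734_a_at was -2.97 (adjusted p = 0.000122) in DN1 with CLP. Mybl2 was -1.32 (adjusted p = 0.0479) in DN1 at its leading probe set, which did not pass in DN3 (-1.29, adjusted p = 0.0637), and -1.91 (adjusted p = 0.00539) in DN3 at 1454946_at. No sign changed. In fits of DN1 and CLP alone, or of DN3 and DN2 alone, the spread rests on 6 arrays, and Myc, Max and the leading probe set of Myb no longer passed in DN1, nor Mycn and the leading probe sets of Mxd4 and Mybl2 in DN3. In like fits of 2 populations, Mxd4 1434379_at and 1422575_at in DN1 with CLP, Myb 1450194_a_at in MPPFL+ with MPPFL-, Mxi1 1450376_at in GMP with CMP and Mxi1 1425732_a_at in CLP with GMP did not pass either. With the spike-in clusters as a block the leading probe set of Mybl2 did not pass in DN1 (adjusted p = 0.0589) or DN3 (adjusted p = 0.103). Of the calls described as lost in several alternatives, both this block and leaving out the 4 arrays ended those of Mxd1 1455104_at and Myb 1450194_a_at in DN1 with CLP, of Mycn 1425923_at in DN1 with CLP, of the leading probe set of Mybl2 in CMP with MPPFL+ and of Mybl2 1454946_at in GMP with CMP. The block alone ended those of Mxd4 1434379_at and Mycn 1425923_at in CLP with GMP.

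The levels of 21 immediate early and stress genes also differed at these steps, with a wide spread between arrays. Their mean level was 11.23 ± 1.21 in DN1 and 8.43 ± 0.13 in CLP (SD, n = 3 each), and 7.37 ± 1.02 in DN3 and 9.62 ± 1.47 in DN2. Of these 21, 13 passed and were higher in DN1 with CLP (7.79% of all genes), and 11 passed and were lower in DN3 with DN2 (13.7% of all genes). Their median difference was 2.54 and -1.70, and 3.58 and -0.68 without the 4 arrays against the male label. The range of their mean over arrays was 9.90 to 12.23 in DN1, 8.68 to 11.32 in DN2 and 6.71 to 8.55 in DN3, where replicate 3 was highest. That DN3 array also fell in another spike-in cluster than the other 2. It stood nearest to DN2 of the DN3 arrays at the leading probe sets of Myc, Mxd4, Max, Myb and Mybl2, but not of Mycn. Without it all 10 member calls in DN3 with DN2 held, with Myc at 3.85, Mxd4 at 2.19, Max at -2.68 and Mybl2 at -1.61. The mean of the stress genes was 8.16 ± 0.11 in GMP and 9.38 ± 0.21 in CMP (SD, n = 3 each), and 9.38 ± 0.21 in CMP and 8.59 ± 0.36 in MPPFL+. The heat shock gene Hspa1a read 10.19, 8.43 and 9.90 in CMP, against 2.76, 2.75 and 2.17 in MPPFL+. The mean of 4 red cell and megakaryocyte markers was 5.16 to 5.31 on GMP arrays and 8.92 to 9.23 on CMP arrays, and 8.92 to 9.23 on CMP arrays and 4.84 to 5.13 on MPPFL+ arrays, with Hba-a1 at the floor in all 3. The calls in GMP with CMP and in CMP with MPPFL+ above stand beside these differences. The mean poly-A spike-in level was 2.52 ± 0.03 in DN1 and 4.17 ± 0.21 in CLP, and 10.99 ± 0.98 in DN3 and 2.50 ± 0.04 in DN2. Of markers of other cells, the mean level of 8 macrophage and dendritic cell genes was 5.95 to 6.30 on DN1 arrays and 7.98 to 8.17 on CLP arrays, and 2.93 to 3.62 on DN3 arrays and 4.46 to 4.96 on DN2 arrays, with Siglech at the floor in DN1, DN2 and DN3. The mean of 7 B lineage genes was 3.62 to 3.75 in DN1 and 4.59 to 5.10 in CLP, with the defining gene Pax5 at the floor in both. The mean of 5 NK and innate lymphoid genes was 6.81 to 7.46 in DN1 and 5.77 to 5.86 in CLP, with Ncr1 at the floor in both. The part of the stress genes and of these markers in the members' differences was not tested.

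Known partners and targets of these factors were read from lists, each gene at its leading probe set. Among 25 genes of the MuvB complex and of the late cell cycle that Mybl2 serves, 20 fell in DN3 with DN2 and 2 rose, with a median difference of -2.87 log2 beside 0 for all genes (13.7% of all genes fell and 16.1% rose). With the spike-in clusters as a block 18 fell (8.87% of all genes), and without the 4 arrays against the male label 18 fell (10.8% of all). Cenpf, a kinetochore gene, fell by 5.27, the mitotic kinase gene Plk1 by 5.13 and the cyclin gene Ccna2 by 4.49, while Lin37, a subunit of MuvB, rose by 2.64. Of the 25, 20 also fell in DN1 with CLP (median -1.21, 18.3% of all genes), 10 rose in DN2 with DN1 (median 0.78, 3.57% of all) and 15 rose in MPPFL+ with MPPFL- (median 0.86, 10.4% of all higher, 5.13% lower and 15.5% either way), the rest not passing. In DN1 with CLP 12 fell with the block (9.47% of all) and 16 without the 4 arrays (15.8% of all). For DN2 with DN1, 11 rose with the block (4.17% of all), and the median was 0.69 without the 4 arrays. That last fit keeps 1 array each of DN1 and DN2. In DN1 the mitotic kinase gene Aurkb fell by 2.75. The mean level of the 25 was 7.97 ± 0.25 in DN3 and 10.21 ± 0.09 in DN2, and 9.46 ± 0.10 in DN1 and 10.67 ± 0.10 in CLP. The leading probe set of Mybl2 passed in the direction of most of the list in DN3, in DN1 and in MPPFL+. It did not pass in DN2 with DN1 (log2 difference 0.72, adjusted p = 0.243, limma). Probe set 1454946_at passed in DN3 and not in DN1, MPPFL+ or DN2. In CMP with MPPFL+ the leading probe set went the other way, higher by 0.96 while 6 of the 25 fell and 1 rose (median -0.38). There 1454946_at was higher by 0.29 and did not pass. The mean of the 25 was 10.67 ± 0.10 in CLP and 10.46 ± 0.02 in GMP, where Mybl2 was highest.

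**Figure D4:**
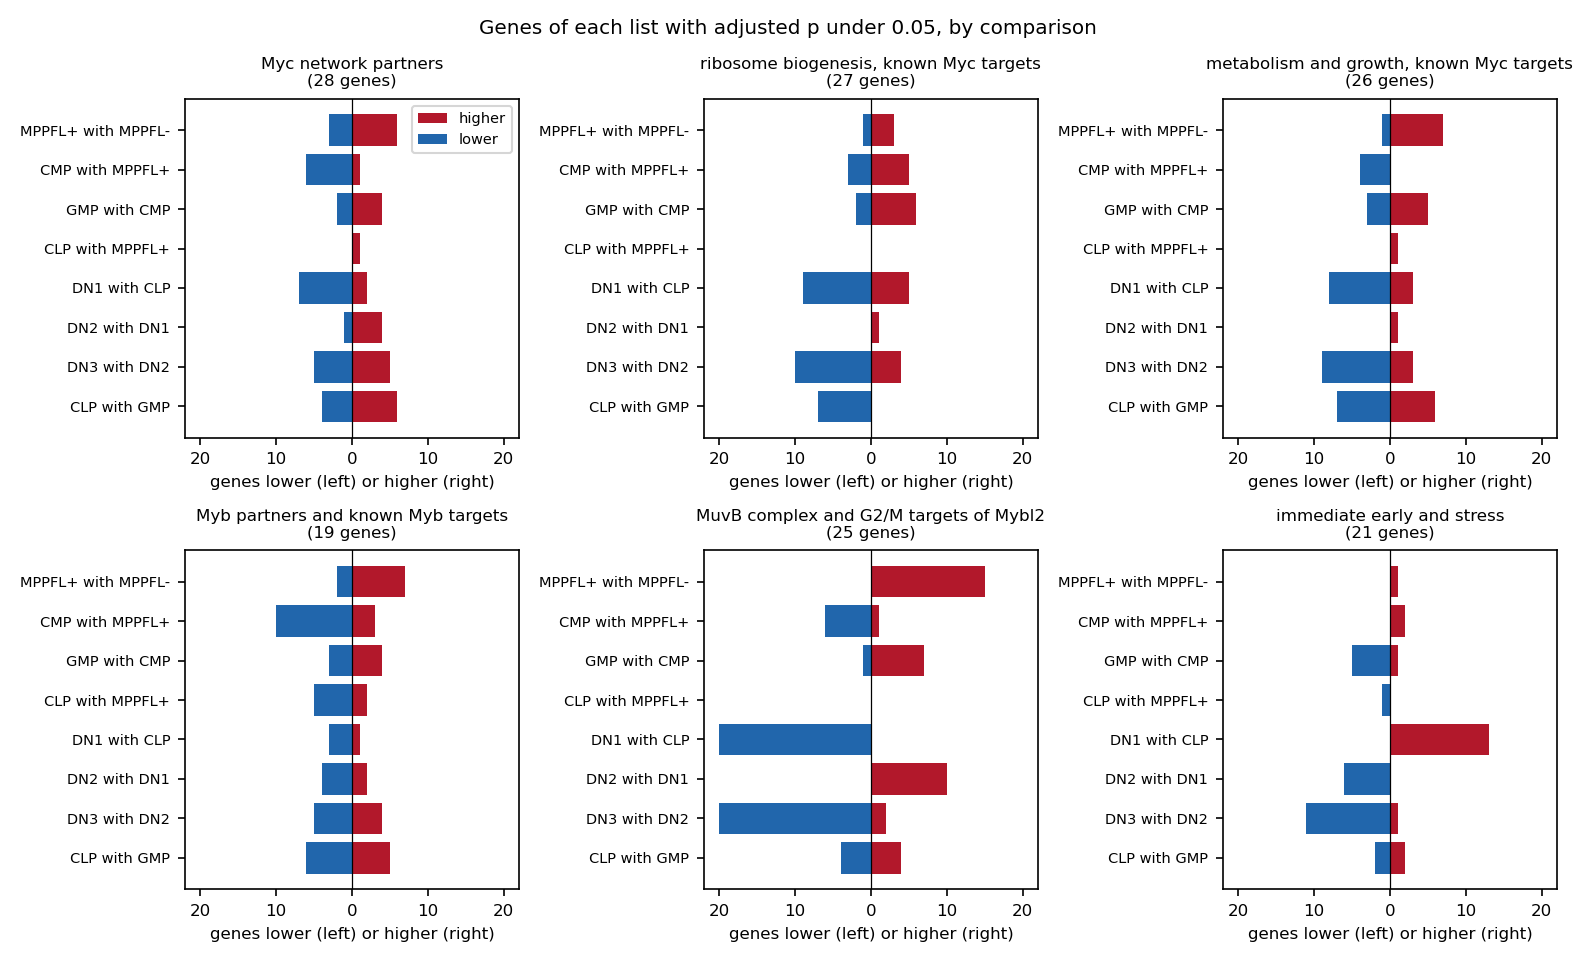
Number of genes in each of 6 lists that passed at an adjusted p under 0.05, higher to the right in red and lower to the left in blue, in the 8 comparisons (first-named population against the other). The 25 genes of the MuvB and G2/M list include 20 that fell in DN1 with CLP and 20 in DN3 with DN2, and 13 of 21 stress genes were higher in DN1 with CLP.

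Of 27 genes of ribosome biogenesis, 4 rose and 10 fell in DN3 with DN2 (median -0.32). Of 26 genes of metabolism and growth 3 rose and 9 fell (median -0.29). Of all genes, 16.1% rose and 13.7% fell there, and Myc was 10.8-fold higher. The second list, drawn up with 28 genes, also named the cell cycle inhibitor genes Cdkn1a and Cdkn2b. The counts take no account of the direction known for a target. Without the 4 arrays against the male label the median was -0.23 for the 27 and -0.09 for the 26. With the spike-in clusters as a block the counts were 2 and 7, and 1 and 7, beside 9.72% and 8.87% of all genes. Those that rose included the amino acid transporter gene Slc7a5 (1.52 log2) and the cyclin gene Ccnd2 (1.06), and those that fell included Odc1 of polyamine synthesis (-1.41). In DN1 with CLP, where Myc was lower, 5 of the 27 rose and 9 fell (median 0.03), and 3 of the 26 rose and 8 fell (median -0.13), beside 7.79% and 18.3% of all genes. With the block the counts were 1 and 3, and 1 and 4, beside 3.56% and 9.47% of all genes. Without the 4 arrays the medians were -0.13 and -0.34. Slc7a5 fell by 3.31 in DN1 with CLP. In MPPFL+ with MPPFL-, where Myc did not pass, Slc7a5 rose by 3.92.

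Of 28 partners and regulators of the Myc network, 5 rose and 5 fell in DN3 with DN2, and 2 rose and 7 fell in DN1 with CLP, beside 16.1% and 13.7% of all genes in DN3 and 7.79% and 18.3% in DN1, which is near the list's shares. With the block the counts were 5 and 3, and 2 and 5. In that fit 9.72% of all genes rose and 8.87% fell in DN3, and 3.56% and 9.47% in DN1. The median difference of the 28 was -0.08 in DN3 and -0.27 in DN1, and -0.03 and -0.49 without the 4 arrays. Trrap, a scaffold that Myc recruits to chromatin, rose by 4.09 in DN3, to 11.53 ± 0.64 against 7.44 ± 0.06 in DN2. Mxd3, the remaining Mxd gene, fell by 1.29 in DN3 and by 2.48 in DN1. Mycl, the other Myc relative, averaged 8.15 ± 0.46 in CLP and 2.24 to 3.21 in the other 7 populations. It was higher in CLP than in MPPFL+ by 5.64 (adjusted p = 2.51e-09) and than in GMP by 5.89 (adjusted p = 2.51e-10), and it fell by 5.58 in DN1 with CLP. The means of MPPFL+, GMP and DN1 lie near the floor of 2.17, which limits the size of these differences. In GMP, where Mycn was near the floor, the repressor gene Mnt was 1.53 lower than in CMP and Mlx, a partner of Mxd proteins, 2.09 higher.

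Of 19 partners and targets known for Myb, 7 rose and 2 fell in MPPFL+ with MPPFL- and 1 rose and 3 fell in DN1 with CLP, and in DN3 with DN2 4 rose and 5 fell. Beside them, 10.4% of all genes rose and 5.13% fell in MPPFL+, 7.79% and 18.3% in DN1, near or above the list's shares there, and 16.1% and 13.7% in DN3. With the block the counts were 7 and 2, 1 and 2, and 3 and 5. Beside them stood 11.5% and 5.69% of all genes in MPPFL+, 3.56% and 9.47% in DN1, and 9.72% and 8.87% in DN3. In CMP with MPPFL+, where no Myb probe set passed, 3 rose and 10 fell (median -0.72). Of all probe sets, 4.9% rose and 11.1% fell there. In CLP with MPPFL+, also with no call for Myb, 2 rose and 5 fell (median -0.09), beside 1.73% and 2.39%. With the block 2 rose and 5 fell in each, beside 2.11% and 8.28% of all genes in CMP and 2.54% and 3.96% in CLP. The 19 include genes that name a lineage, so that Ptcra rose by 9.88 and Mpo fell by 7.49 in DN3. In MPPFL+ the lymphoid gene Dntt rose by 5.23, and in DN1 the recombinase gene Rag2 fell by 3.04 while Gata3 rose by 3.86.

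Other genes were ranked by Pearson correlation with each leading probe set over the 26 arrays, among 9097 genes of at least median level. The highest were Fermt3 for Myc (r = 0.93), Ctla2a for Mycn (0.96), Surf6 for Max (0.88), Klf6 for Mxd1 (0.66), Tecpr1 for Mxd4 (0.92), Txndc16 for Mxi1 (0.84), Acd for Myb (0.93) and Sfxn1 for Mybl2 (0.92). These are the highest of many, the arrays share populations and spike-in clusters, and the values are descriptions.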

How the data were processed

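The data are 26 arrays of 8 populations, grouped by the population in each title. The authors deposited 1 table of log2 values per probe set. Per the labels, RNA was extracted with Trizol and biotin-labelled. No normalization or summarization method is named in the sources used here. Values were used as deposited, with a floor at 2.17 and a maximum of 17.1, and no detection calls. The number of arrays limits the precision.

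Of 45101 probe sets, 34958 carry 1 gene symbol, 932 carry several and 9211 carry no symbol. The 64 controls were left out. limma 3.58.1 (R 4.3.3) was fitted by lmFit and eBayes to all arrays with population as the only term (18 residual and 0.482 prior degrees of freedom), two-sided, Benjamini-Hochberg per comparison. It was tested on simulated data. The members and gene lists were chosen with earlier results of these data known. In each list, up to 3 rising and 3 falling genes with the largest change in a comparison may be named, and the text names part of them. Xist and Eif2s3y were chosen after their values were seen. Promoter sequences are RefSeq's (GRCm38.p6). Alternatives were 1 probe set per gene, a filter on dim probe sets, quantile normalization, a variance trend, the replicate number or spike-in clusters as a block, the signal of 3' over 5' controls, 2 populations only, and leaving out arrays. List counts with the spike-in clusters as a block, or without arrays that stand apart, were added after the data had been seen.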

Additional observations from a re-analysis of the deposited data

Results flagged for a closer look

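Replicate 4 of MPPFL- stood apart from the other 4 arrays of that population at 2 dim probe sets, by Dixon's test. It was lowest at 1425922_a_at of Mycn, at 2.26 where the others lay between 2.90 and 2.96. It was highest at 1425732_a_at of Mxi1, at 3.21 where the others lay between 3.09 and 3.12. Both probe sets lie near the floor on these arrays, and 17 probe sets were tested in this population, where chance picks out about 1 in 20 groups.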

How the results depend on the processing

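Of 2214 values of a single probe set under an alternative, 2067 kept their side of the threshold, 115 lost the call and 32 gained one. Of those that passed in either fit, 0 reversed direction. The direction of values that passed in neither fit was not compared. The counts of member probe sets that passed were less stable, and where a count moved by over 1.5 times it is given here. The cause was not tested, except that fewer probe sets or fewer arrays enter some fits. With 1 probe set per gene (8 in place of 19) the count was 2 for MPPFL+ with MPPFL-, 2 for GMP with CMP, 5 for DN1 with CLP, 6 for DN3 with DN2, 3 for CLP with GMP and 7 for any difference among populations. With a filter on dim probe sets it was 3 for DN2 with DN1. With quantile normalization it was 1 for CMP with MPPFL+ and 2 for DN2 with DN1. With the spike-in clusters as a random block it was 0 for CMP with MPPFL+, 2 for GMP with CMP, 5 for DN1 with CLP, 2 for DN2 with DN1, 6 for DN3 with DN2 and 4 for CLP with GMP. With the control signal as a covariate it was 3 for MPPFL+ with MPPFL-, 1 for CMP with MPPFL+, 3 for DN2 with DN1 and 3 for CLP with GMP. Without the arrays against the male label it was 1 for CMP with MPPFL+. In fits of the 2 populations alone it was 2 for MPPFL+ with MPPFL-, 0 for CMP with MPPFL+, 1 for GMP with CMP, 6 for DN1 with CLP and 0 for DN2 with DN1. Leaving out 1 array gave 3 to 6 for MPPFL+ with MPPFL-, 0 to 4 for CMP with MPPFL+, 0 to 1 for CLP with MPPFL+, 2 to 6 for GMP with CMP and 0 to 2 for DN2 with DN1.

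The labels share replicate numbers, but same-numbered arrays did not deviate together (median r of deviations -0.016 over 84 pairs, 0.006 over 210 other pairs), so the numbers name arrays only. With the replicate block the count was 3 for MPPFL+ with MPPFL-, 0 for CMP with MPPFL+ and 0 for DN2 with DN1. Levels near the floor limit what can be read from the 7 dim probe sets, from Mycn in GMP and from Max in the bone marrow populations.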
